A study of Mus musculus with 4 samples.

Results

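The genes of the mitochondrial respiratory chain and of ATP synthase were described across cell types, brain regions and genotypes. They were chosen by symbol alone: every gene present in both count tables whose name marks it as a mitochondrially encoded subunit (mt-Nd, mt-Co, mt-Cytb, mt-Atp) or as a nuclear gene of complex I (Nduf), II (Sdha to Sdhd), III (Uqcr), IV (Cox4 to Cox8) or V (Atp5). This rule found 104 of the 19040 features shared by the tables, 13 encoded by the mitochondrial genome and 91 by the nucleus. Of the nuclear genes, 81 encode subunits (36 of complex I, 4 of II, 8 of III, 18 of IV and 15 of V), 8 are assembly factors of complex I (Ndufaf genes), and Cox7a2l and Atp5s are other factors.

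The samples were 4 single-cell RNA libraries, 1 each from the frontal cortex (FC) and the midbrain (MB) of mice carrying the transgene Huα-Syn(A53T) and of wildtype C57BL/6 littermates, all 6 to 9 months old. The design text gives 3 mice a group, but the mouse number label is 3 for frontal cortex and 0 for midbrain, and the cell tables name no mouse, so a group was 1 sample. The promoter that drives the transgene is not given in the sources used here. Cells were freed with the Neural Tissue Dissociation kit (P) in a protocol aimed at adult glia and blood vessels and were sequenced from the 3′ end of their transcripts (10x Genomics, v3 chemistry).

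The respiratory chain passes electrons from NADH (complex I) and succinate (complex II) through complexes III and IV to oxygen, and ATP synthase (complex V) uses the resulting proton gradient. Complexes I, III, IV and V each combine subunits made inside the mitochondrion with subunits imported from the cytosol, whereas complex II is wholly nuclear-encoded. The mitochondrial genes are transcribed as long joined precursors that are cut into shorter RNAs, while each nuclear gene has its own promoter. The mitochondrial share of a cell's RNA is also widely used in single-cell work as a sign of damaged cells, since cytosolic RNA leaks out first.

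The libraries held 3775 (FC transgenic), 6239 (FC wildtype), 3995 (MB transgenic) and 7635 (MB wildtype) cells, with medians of 6900 to 8193 unique molecular identifiers (UMIs, each marking 1 captured RNA molecule) per cell. Between 3 and 15 cell barcodes were shared by any pair of libraries. The deposited column percent.mt equalled the summed share of the 13 genes in every cell, and no cell reached 20%, with a highest value of 19.94% in frontal cortex and 19.996% in midbrain.

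Cell types are the authors' labels. AC (astrocytes), MG (microglia), EC (endothelial cells), PC (pericytes), SMC (smooth muscle cells), MAC (border macrophages), frontal cortex mNeur (mature neurons), midbrain EPC (ependymal cells), midbrain CPC (choroid plexus cells) and frontal cortex imNeur (immature neurons) had most or all of their marker genes highest in that label. Other labels went at least partly against their name and are printed only as labels. Olfactory ensheathing markers (5 of 5) were highest in frontal cortex CPC cells. OLG cells had 3 of 3 meningeal barrier markers, and midbrain imNeur cells 6 of 6 oligodendrocyte progenitor markers. Midbrain mNeur cells had 7 of 7 mature neuron markers but also 5 of 6 immature neuron markers. OPC cells had 5 of 5 fibroblast markers in both regions, and in frontal cortex also 5 of 6 oligodendrocyte progenitor markers. UMIs were summed over the cells of a label in a library and scaled to counts per 1000000 UMIs (CPM), for labels with at least 50 cells. Counts from the 3′ end were not divided by length, and levels of different genes are not ranked against each other. With 1 library per group no test could be run: the 95% intervals given cover counting error only, and genotype cannot be told apart from library.

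Summed mitochondrial RNA differed several-fold between cell types, and microglia were lowest in all 4 libraries. In microglia the 13 genes together stood at 29957 (FC transgenic), 22214 (FC wildtype), 23422 (MB transgenic) and 25242 CPM (MB wildtype). Smooth muscle cells stood at 86103, 76853, 76589 and 77559 CPM, the highest named type in the libraries other than transgenic frontal cortex, where astrocytes reached 92954 CPM. Midbrain OLG cells of the wildtype library were higher still, at 85820 CPM from 54 cells. Endothelial cells (37371 to 41099 CPM), pericytes (37355 to 47379) and macrophages (35164 to 41149) lay close together in all 4 libraries. No spread between animals exists to order these 3 neighbours.

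The 91 nuclear genes followed another order. Microglia were again lowest, with 11701, 10462, 10481 and 10630 CPM in the order of libraries above. Midbrain choroid plexus cells, an epithelium that secretes cerebrospinal fluid, were far above every other label at 65450 (transgenic) and 67932 CPM (wildtype). The next label, smooth muscle, reached 27024 and 26588 CPM there. In frontal cortex, mature neurons (26094 transgenic, 32830 wildtype) and smooth muscle cells (27651 and 27830) were highest. Between the highest and lowest label of the wildtype libraries, a typical nuclear gene varied 3.26-fold in frontal cortex and 6.23-fold in midbrain (medians over the nuclear genes that reached 20 CPM in a label of that region), against 3.55-fold and 3.71-fold for the mitochondrial genes. Choroid plexus cells were the highest midbrain label for 74 of the 89 nuclear genes that reached 20 CPM there, and microglia the lowest for 55.

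The number of mitochondrial UMIs per nuclear-gene UMI therefore separated cell types that have similar mitochondrial sums. Choroid plexus cells had 1.12 (transgenic) and 0.91 (wildtype) and pericytes 1.62 and 1.65 in midbrain, the lowest values there. Astrocytes had 3.902 (transgenic) and 2.60 (wildtype) in frontal cortex, against 3.49 and 3.29 in midbrain. Smooth muscle cells lay between 2.76 and 3.11 in all 4 libraries, so their high mitochondrial level came with a high nuclear level as well.

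**Figure D1:**
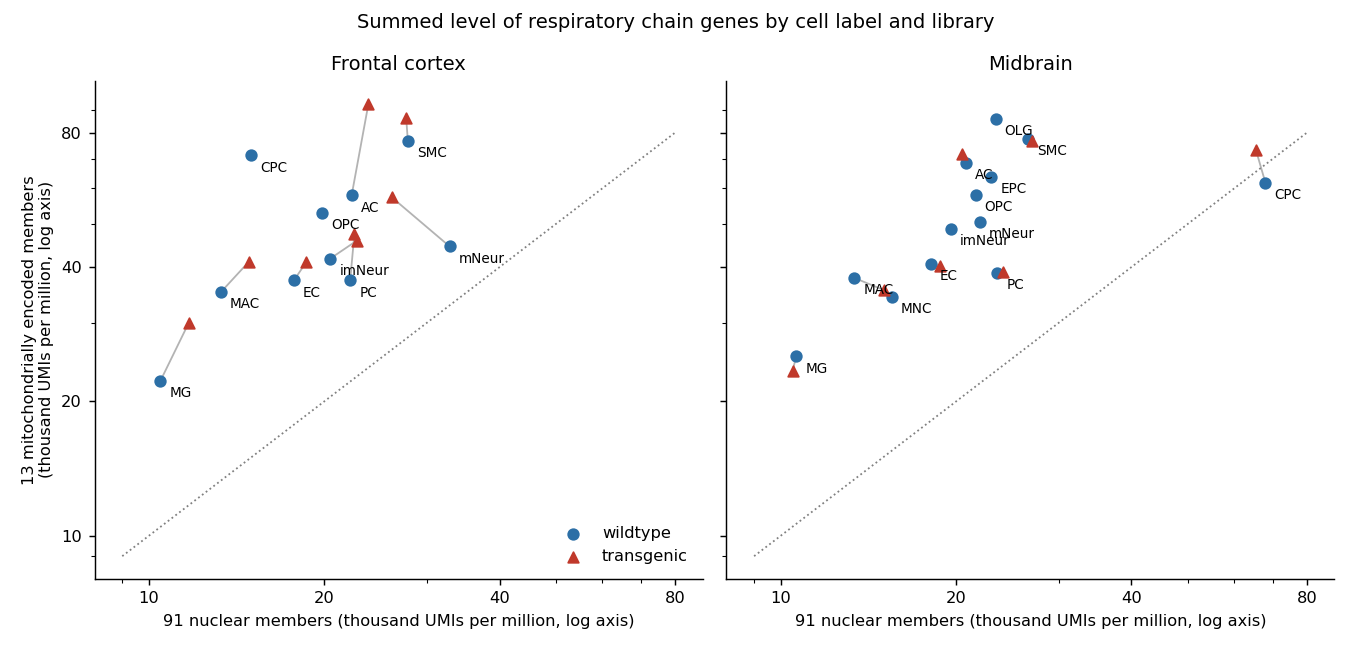
Summed CPM (log axes, in units of 1000 CPM) of the 91 nuclear genes (x) and the 13 mitochondrially encoded genes (y) per cell label, for wildtype (circles) and transgenic (triangles) libraries, with lines joining a label's libraries and a dotted line at equal levels. Microglia sit lowest in both regions, midbrain CPC cells lie alone at the right near the line of equal levels, and the longest upward shift is that of frontal cortex astrocytes, from 57944 to 92954 CPM.

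A typical nuclear member spread about as widely as the nuclear sum, which varied 3.14-fold (frontal cortex) and 6.39-fold (midbrain) between wildtype labels. Some single members, mainly isoform genes, spread far more widely. Ndufa4l2 stood at 1576 CPM in pericytes and at 0 UMIs in the cells labelled CPC of the wildtype frontal cortex, at least 345-fold higher against a floor of 3 UMIs in that label. Ndufa4, a subunit that most cells need, ranged 25.3-fold in frontal cortex, from 53.6 CPM in pericytes to 1357 CPM in mature neurons, and 33.8-fold in midbrain, from 82.0 CPM in pericytes to 2774 CPM in choroid plexus cells. These isoform genes are described next.

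Pericytes used other versions of a pair of complex IV subunits than the remaining cell types. Ndufa4, despite its name a subunit of complex IV, has a close relative, Ndufa4l2 (chr10:127514967-127517154, plus strand, GRCm38), known to be induced by low oxygen. In pericytes Ndufa4l2 stood at 1606 (FC transgenic), 1576 (FC wildtype), 1710 (MB transgenic) and 1657 CPM (MB wildtype), and Ndufa4 at 60.7, 53.6, 59.7 and 82.0 CPM. Ndufa4l2 thus made up 96.4%, 96.7%, 96.6% and 95.3% of the UMIs of the pair (exact binomial 95% intervals from 94.3% to 97.5%). Smooth muscle cells, the neighbouring mural cell type, had 23.3%, 29.5%, 35.7% and 33.2%, and the median over all labels was 1.51%, 1.09%, 0.90% and 1.45%.

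The same held for Cox4i2 (chr2:152754173-152765037, plus strand), the alternative form of subunit 4, which is likewise known as oxygen-responsive. Cox4i2 took 53.2%, 55.9%, 56.6% and 52.2% of the UMIs of Cox4i1 and Cox4i2 in pericytes, 10.7%, 14.9%, 16.1% and 14.99% in smooth muscle cells and, as a median over labels, 0.82%, 0.65%, 0.37% and 0.37%. Cox4i1, the common form, stayed at 650 to 701 CPM in pericytes, beside 614 and 617 CPM in frontal cortex and 603 and 627 CPM in midbrain endothelial cells. Pericytes thus held both forms of subunit 4 at similar counts, but little Ndufa4 beside Ndufa4l2. Between genotypes, the pericyte shares of both genes were slightly lower in the transgenic library in frontal cortex and slightly higher in midbrain. No interval for these differences is given here, so counting error is not set aside.

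Among the cell types in this paragraph, Ndufa4l2 and Cox4i2 were detected most often in pericytes and next in smooth muscle cells. Cox4i2 was found in 84.7% to 92.7% of pericytes and 38.0% to 61.9% of smooth muscle cells. In frontal cortex it was found in 6.57% (transgenic) and 7.31% (wildtype) of astrocytes, above endothelial cells (5.92% and 5.76%). Ndufa4l2 was found in 37.0% to 55.6% of smooth muscle cells. At least 1 Ndufa4l2 UMI was found in 97.1% (transgenic) and 98.4% (wildtype) of frontal cortex pericytes and 97.8% and 98.8% of those from midbrain, which have shallow libraries of 4603 to 5482 median UMIs. The same share was 0.79% to 1.69% in astrocytes and 1.10% to 1.59% in microglia, with median UMIs of 6320 to 8318. Endothelial cells, which lie against pericytes, had 7.70% to 11.2%. The part of free RNA in these shares was not tested. Ndufa4, by contrast, was detected in 15.7% to 23.7% of pericytes and in 65.6% to 100% of cells in astrocytes, microglia, endothelial, smooth muscle and choroid plexus cells.

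Midbrain choroid plexus cells differed in other isoforms. Cox8b (chr7:140898945-140900446, minus strand), the muscle form of the smallest complex IV subunit, stood at 605 (transgenic) and 493 CPM (wildtype) in these cells and was at most 4.92 CPM in astrocytes, microglia, endothelial cells, pericytes and smooth muscle cells of either region. It made up 14.2% and 11.4% of the UMIs of Cox8a and Cox8b, with counting intervals of 13.5% to 14.8% and 11.03% to 11.8%. A Cox8b UMI was present in 63.2% and 64.6% of choroid plexus cells and in at most 2.72% of cells in those other labels. Cox6b2, known as the testis form of subunit 6b, took 21.5% and 25.01% of its pair, but it also took 18.1% in the wildtype midbrain cells labelled OLG and 10.2% to 10.9% in pericytes of both regions. Cox7a1, the heart and muscle form of subunit 7a, took 9.57% and 8.61% in choroid plexus cells.

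ATP synthase also differed in isoform use. Atp5g1, Atp5g2 and Atp5g3 are separate genes whose products end as an identical ring subunit (subunit c). Atp5g1 held 61.3% (transgenic) and 61.9% (wildtype) of the trio's UMIs in midbrain choroid plexus cells, at 1982 and 2408 CPM, and no other label exceeded 31.8% in any library. In the frontal cortex cells that carry the label CPC, Atp5g1 held 31.8%, Cox8b had 0 of 344 UMIs (exact upper limit 1.07%) and Ndufa4l2 0 of 210, so these cells did not share the midbrain pattern.

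Microglia stood apart in Cox6a2, the heart and muscle form of subunit 6a. It held 5.82% and 3.78% of the UMIs of Cox6a1 and Cox6a2 in frontal cortex microglia and 9.79% and 9.602% in midbrain microglia (transgenic and wildtype). The second-highest label had 0.55% to 1.05%. The level was low, 6.0 to 17.3 CPM, so the common form remained dominant.

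**Figure D2:**
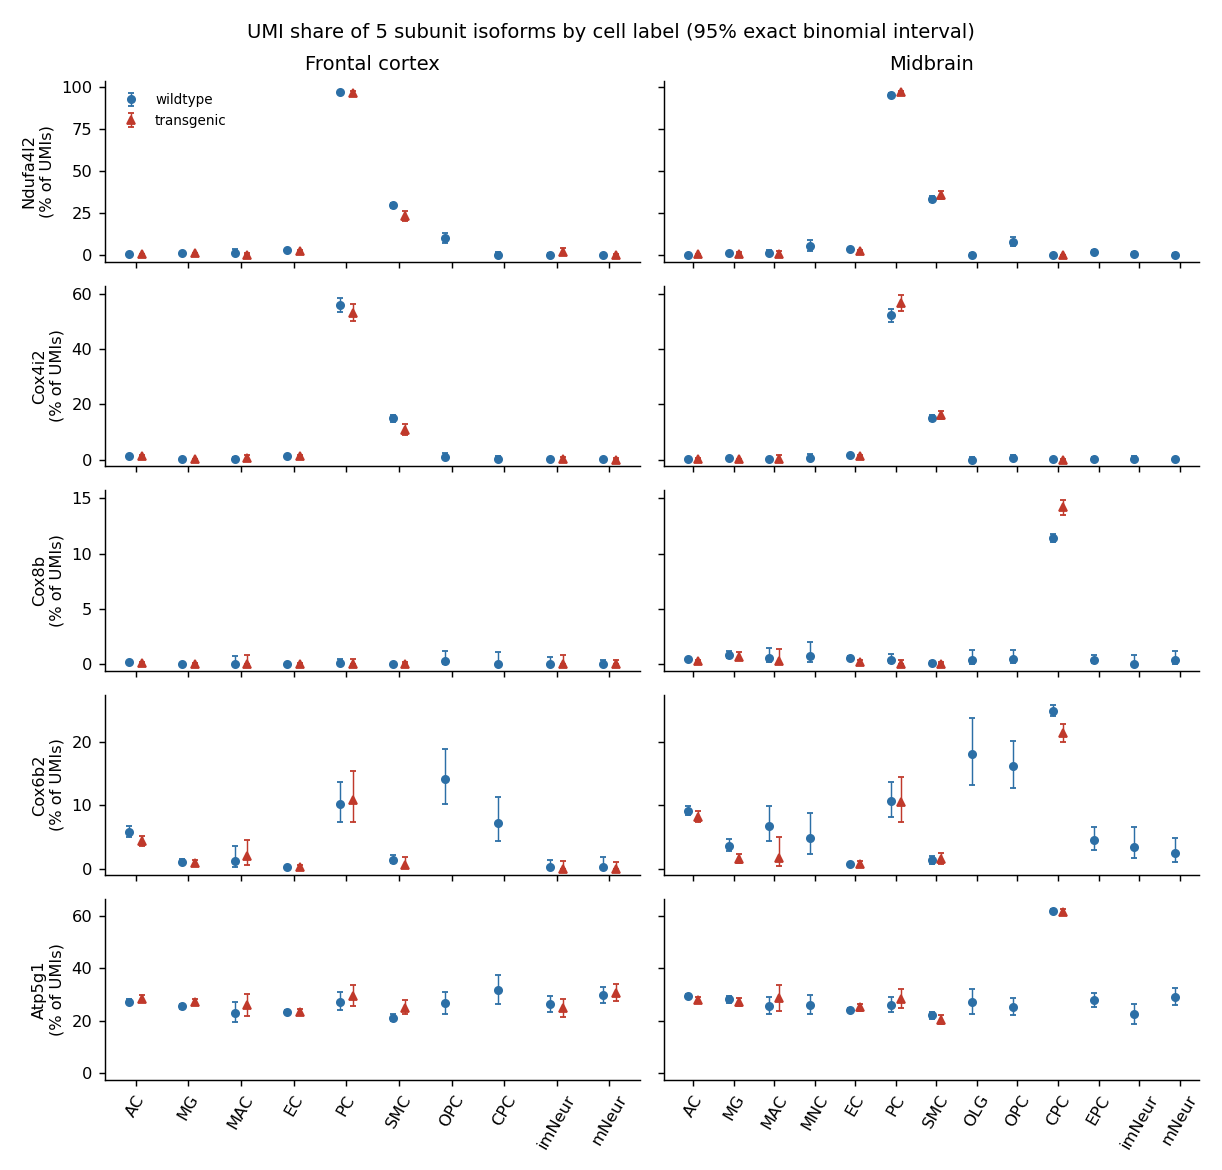
Share of UMIs (%, with exact binomial 95% intervals) taken by 1 isoform among the genes of its subunit, per cell label, for wildtype (circles) and transgenic (triangles) libraries: Ndufa4l2 of Ndufa4 and Ndufa4l2, Cox4i2 of Cox4i1 and Cox4i2, Cox8b of Cox8a and Cox8b, Cox6b2 of Cox6b1 and Cox6b2, and Atp5g1 of Atp5g1 to Atp5g3. Ndufa4l2 and Cox4i2 are high in PC and next in SMC, and Cox8b and Atp5g1 are high in midbrain CPC alone among the labels drawn.

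The start regions of the common and the muscle form of subunit 8 are shown because the muscle form was found mainly in choroid plexus cells and the common form in all labels. Each window runs from 250 bases before to 50 bases after the annotated start (RefSeq, GRCm38.p6), written along the gene. Capitals mark matches, on either strand, to the 3 motifs known for housekeeping respiratory genes, the NRF1 core (GCGCATGC), an ETS core (CCGGAAG) and a YY1 core (AAGATGGC), or to a TATA box (TATAAA). Cox8a, at chr19:7217567-7217866 on the minus strand, holds the ETS core at 2 places, both on the opposite strand. Cox8b, at chr7:140900397-140900696 on the minus strand, holds none of the 3 and 1 TATA box.
Cox8a: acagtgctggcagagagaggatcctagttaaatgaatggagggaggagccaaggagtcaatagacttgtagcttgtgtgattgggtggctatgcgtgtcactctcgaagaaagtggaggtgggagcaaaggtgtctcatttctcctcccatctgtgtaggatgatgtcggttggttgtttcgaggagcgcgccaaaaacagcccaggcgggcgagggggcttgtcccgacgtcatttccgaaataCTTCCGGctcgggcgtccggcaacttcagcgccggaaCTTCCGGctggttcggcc
Cox8b: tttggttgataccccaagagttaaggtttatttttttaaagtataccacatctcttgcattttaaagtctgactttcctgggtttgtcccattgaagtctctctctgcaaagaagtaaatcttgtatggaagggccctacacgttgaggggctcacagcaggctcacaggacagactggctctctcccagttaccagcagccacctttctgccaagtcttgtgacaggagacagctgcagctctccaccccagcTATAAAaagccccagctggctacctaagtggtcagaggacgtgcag

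Over the 78 start windows of the 73 nuclear genes that the sequence table holds, 42.3% carried at least 1 of the first 3 motifs, against 13.3% of all 32817 windows in the table. The NRF1 core was in 15.4% against 2.71%, the ETS core in 23.1% against 8.86%, and the YY1 core in 12.8% against 2.74%. The TATA box was in 10.3% against 13.6%, in windows of Atp5l, Cox7b2, Cox8b, Ndufa3, Ndufa7, Ndufb7 and Ndufs7. A match is a run of letters and not a shown binding site.

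Within the choroid plexus label, 1 of 3 deposited clusters ran against the others. Cluster 13 (78 transgenic and 208 wildtype cells) had a median percent.mt of 1.52% and 1.94%, against 8.56% and 7.87% in cluster 8 and 9.07% and 7.84% in cluster 12. Its mitochondrial sum was 21536 and 29263 CPM and its nuclear sum 109417 and 98929 CPM, so nuclear-gene UMIs outnumbered mitochondrial ones. In clusters 8 and 12 the nuclear sum was 48423 to 50845 CPM. All 13 mitochondrial genes were lower in cluster 13 in either library.

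The nuclear excess of cluster 13 has to be read against the rest of its RNA. In the transgenic library 74 of 79 nuclear members were at least 1.2 times higher in cluster 13 than in cluster 8 and 3 lower, but so were 78.4% and 19.3% of all genes measured (20 CPM on 1 side and 100 UMIs over both, as in all counts of this kind). The wildtype counts were 79 of 85 higher and 2 lower (78 and 2 against cluster 12), beside 77.1% and 18.1% of all genes (79.6% and 16.5% against cluster 12). Against cluster 12 the transgenic counts were 74 of 79 and 2, beside 78% and 19.8%. Ttr, the transthyretin gene that dominates choroid plexus RNA, took 35.4% to 36.4% of UMIs in clusters 8 and 12 and 9.67% and 13.8% in cluster 13, so more of the total was left to other genes there. Leaving out Ttr, Malat1 and the mitochondrial genes, nuclear members made up 12.4% and 11.9% of UMIs in cluster 13, against 8.77% to 9.13% in cluster 8 and 8.94% and 9.10% in cluster 12. These clusters were made from the same counts, so the contrast is a description.

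Across cells of a label, the link between percent.mt and the nuclear genes differed in sign by cell type. Among wildtype frontal cortex astrocytes, nuclear members were higher in each further bin, from 1.62% of the non-mitochondrial UMIs in cells under 2.5% percent.mt to 3.59% in cells of 15% to 20%. The other astrocyte libraries gave 1.40% to 3.65% (FC transgenic), 1.48% to 3.56% (MB transgenic) and 1.53% to 3.62% (MB wildtype). Midbrain choroid plexus cells went the other way, from 11.3% (transgenic) and 10.7% (wildtype) under 2.5% to 5.06% and 4.96% at 10% to 15%. Endothelial cells stayed between 1.73% and 2.19% in every bin of all 4 libraries. Over single cells the Spearman correlation of the mitochondrial and nuclear shares was 0.46 (868 cells) and 0.56 (1067) in frontal cortex astrocytes and −0.68 (269) and −0.66 (565) in midbrain choroid plexus cells, as a description of cells that share a library. Within single clusters it was 0.02 to 0.53 in frontal cortex astrocytes, under 0.14 in 5 of the 8 combinations of cluster and library, and −0.63 to −0.19 in the choroid plexus clusters. Depth moved with these bins: the wildtype frontal cortex astrocytes had a median of 8049 UMIs in the lowest bin and 2064 in the highest, and its part in the pattern was not tested.

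**Figure D3:**
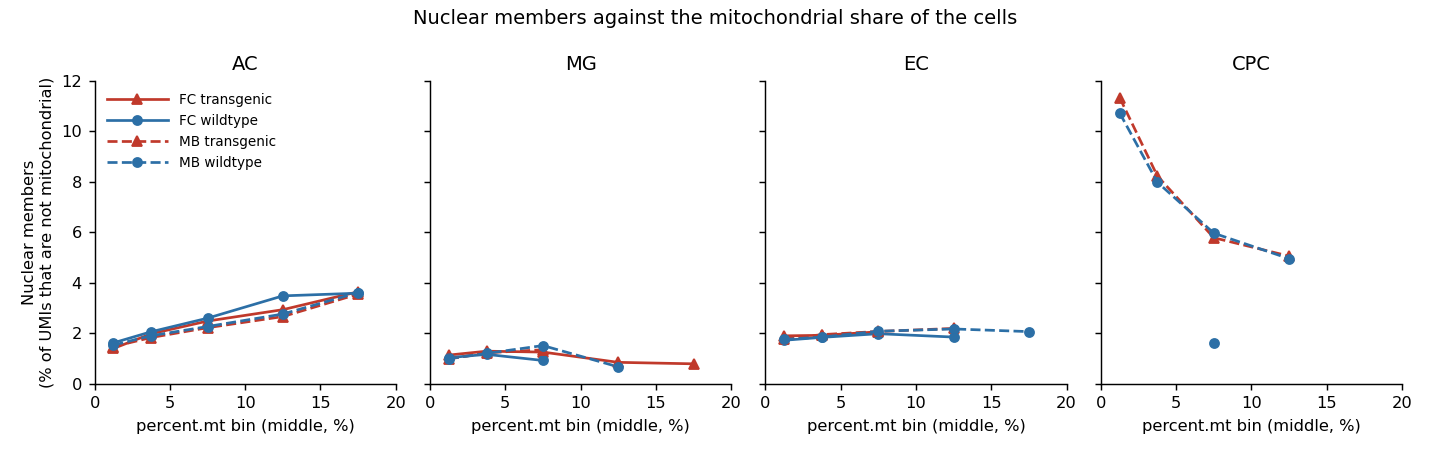
Nuclear members as a percentage of UMIs that are not mitochondrial, by percent.mt bin (drawn at the bin's middle), for AC, MG, EC and CPC cells of frontal cortex (solid) and midbrain (dashed), transgenic (triangles) and wildtype (circles), in bins of at least 20 cells. The astrocyte lines climb from about 1.5% to 3.6%, the midbrain CPC lines fall from 10.7% or more to about 5%, and the endothelial lines are nearly flat. The lone CPC point is the frontal cortex label.

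The comparison of genotypes asked whether mitochondrial and nuclear members differed together. In frontal cortex astrocytes the mitochondrial sum was 92954 CPM in the transgenic and 57944 CPM in the wildtype library (log2 ratio 0.68), while the nuclear sum was 23821 and 22288 CPM (log2 ratio 0.10). The balance, log2 of mitochondrial over nuclear-gene UMIs, was therefore 0.59 higher in the transgenic library (0.58 to 0.60). Median percent.mt was 9.68% and 5.27%, and 48.2% and 19.96% of cells lay at or above 10%. Weighting the 4 astrocyte clusters alike gave log2 ratios of 0.22 for the mitochondrial and −0.15 for the nuclear sum and a balance difference of 0.36, and leaving out cells at or above 10% gave 0.33.

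Other frontal cortex labels differed less, apart from neurons. The balance difference was 0.27 in microglia (29957 against 22214 CPM mitochondrial, 11701 against 10462 nuclear), 0.32 in pericytes, 0.17 in smooth muscle cells, and 0.07 in endothelial cells and in macrophages. With clusters weighted alike it was −0.06 in endothelial cells and 0.41 in microglia. Mature neurons, with only 80 and 67 cells, had the largest difference, 0.70. It came from both sides, with a mitochondrial sum of 57399 against 44495 CPM and a nuclear sum of 26094 against 32830 CPM. Immature neurons had −0.02 (−0.06 to 0.02), since both sums were higher by similar factors (log2 0.13 and 0.15).

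Midbrain gave differences of either sign. Astrocytes had 71516 (transgenic) against 68481 CPM mitochondrial and 20505 against 20784 CPM nuclear, a balance difference of 0.08 (0.07 to 0.09). Choroid plexus cells were highest at 0.30 (73049 against 61787 CPM mitochondrial), with cluster 13, low in mitochondrial RNA, making up 29.0% of the transgenic and 36.8% of the wildtype cells. Within choroid plexus clusters 8, 12 and 13 the balance difference was 0.00037, 0.32 and −0.59, and with these weighted alike it was 0.016. It was 0.18 with per-cell CPM averaged and 0.069 in cells under 10% percent.mt. Endothelial cells had −0.07, microglia −0.09, macrophages −0.26, smooth muscle cells −0.04 and pericytes −0.02 (−0.06 to 0.01). In microglia the sign turned to 0.12 with clusters weighted alike.

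In 5 of 6 labels with all 4 libraries the regions were ordered differently in the 2 genotypes. In the wildtype libraries the astrocyte balance was 0.34 higher in midbrain than in frontal cortex and the microglial balance 0.16 higher. In the transgenic libraries both were lower in midbrain (−0.16 and −0.20). Endothelial cells (0.10 wildtype, −0.04 transgenic), smooth muscle cells (0.08 and −0.14) and macrophages (0.10 and −0.23) had the same pattern of signs. Pericytes were lower in midbrain in both genotypes (−0.034 wildtype, −0.37 transgenic). All these labels share their 4 libraries, so the pattern counts once.

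Within the deposited clusters, the transgenic library had the higher balance in 4 of 4 frontal cortex astrocyte clusters (0.18 to 0.61), in 4 of 4 microglial clusters (0.17 to 0.75) and in 6 of 6 midbrain astrocyte clusters (0.008 to 0.31). Only 1 of 4 midbrain microglial clusters and 1 of 4 midbrain endothelial clusters did so. Cluster sizes also differed: cluster 4 of the frontal cortex astrocytes, with median percent.mt of 13.7% and 12.02% and only 2287 and 1819 median UMIs, made up 35.6% of transgenic and 19.2% of wildtype cells.

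**Figure D4:**
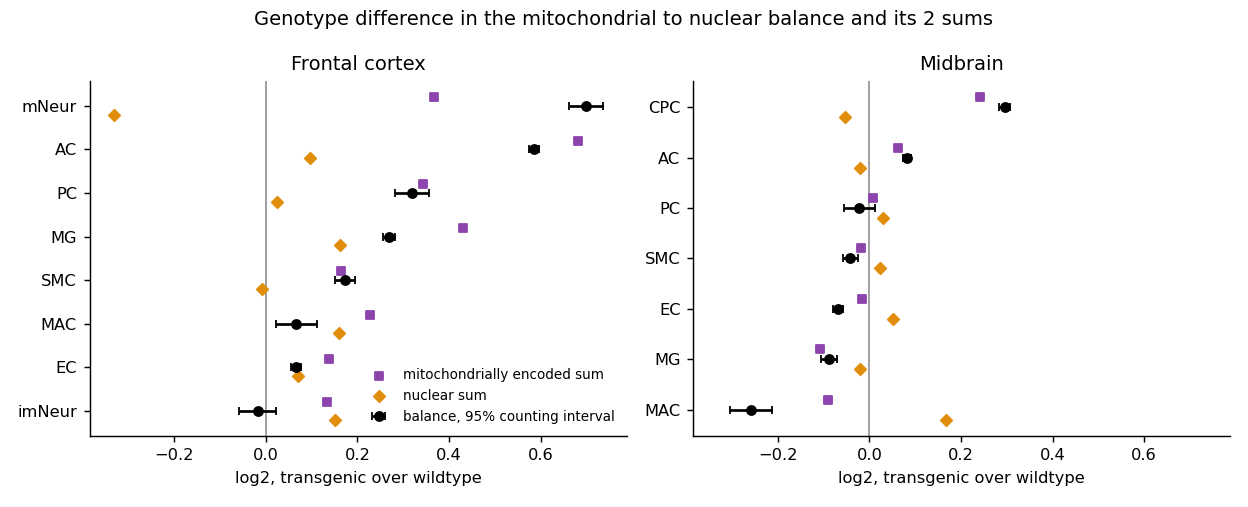
Log2 difference, transgenic over wildtype, of the mitochondrially encoded sum (squares), the nuclear sum (diamonds) and their balance (circles, with 95% counting intervals) per cell label and region. In frontal cortex the mitochondrial sum lies right of 0 in all 8 labels, and mature neurons combine a higher mitochondrial sum with a nuclear log2 ratio of −0.33. In midbrain the circles lie on both sides of 0.

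All 13 mitochondrial genes were higher in transgenic frontal cortex astrocytes by at least 1.2 times, a share of genes that was 17.1% among all 7120 measured there. mt-Cytb, the only mitochondrial gene of complex III, differed most, at 11470 against 5872 CPM (log2 0.97, 0.95 to 0.98). mt-Nd6, mt-Nd5 and mt-Nd4 of complex I followed at 0.82, 0.79 and 0.78, and mt-Nd1 (3540 against 2536 CPM) differed least at 0.48. Complex IV genes lay at 0.52 (mt-Co1), 0.68 (mt-Co2) and 0.66 (mt-Co3). With the 4 clusters weighted alike, mt-Nd6 (0.60), mt-Cytb (0.50), mt-Nd5 (0.33), mt-Nd4l (0.31) and mt-Nd4 (0.29) passed 1.2 times, and the other mitochondrial genes lay between 0.01 (mt-Nd1) and 0.26 (mt-Atp8).

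mt-Cytb was also higher in every other frontal cortex label compared, with log2 ratios of 0.24 to 0.97 over the 8 labels. Its share of mitochondrial UMIs was larger in transgenic astrocytes, microglia and endothelial cells of both regions, by 0.60 to 2.21 percentage points. The 8 or 7 labels of a region come from the same pair of libraries and are not independent of each other. The share of all genes with 1 sign in every label of a region is not given here. Microglia of frontal cortex had 12 of 13 mitochondrial genes higher (background 6.04% of 6573 genes), up to 0.65 for mt-Nd6, with mt-Nd3 at 0.25 as the exception. Endothelial cells had 1 of 13, mt-Cytb at 0.27 (background 7.04%).

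In midbrain the mitochondrial genes did not move as 1 block. The transgenic library had more mt-Nd3 in 7 of 7 labels (log2 0.24 to 0.66, 7 counting intervals above 0). It also had more mt-Nd6 (0.17 to 0.88, 5 intervals), mt-Atp8 (0.10 to 0.65, 6 intervals) and mt-Nd4l (0.08 to 0.44, 5 intervals) in 7. These are the shortest of the 13 genes (204 to 519 bases), and the part of length was not tested. The labels share 1 pair of libraries, and the share of all genes with 1 sign in 7 of 7 is not given here. mt-Atp6, the partner of mt-Atp8 in ATP synthase, was lower in 6 of 7 (−0.24 to −0.06), with choroid plexus cells the exception at 0.10. In midbrain astrocytes, mt-Atp8 stood at 250 against 191 CPM (0.39, 0.31 to 0.46) and mt-Atp6 at 12406 against 12959 CPM (−0.06, −0.07 to −0.05). In frontal cortex astrocytes the same genes differed alike, by 0.74 and 0.65. Of the 13 genes, 4 passed 1.2 times in midbrain astrocytes (mt-Nd6, mt-Nd3, mt-Atp8 and mt-Nd4l; background 9.3%), 2 in microglia (background 7.57%) and 2 in endothelial cells (background 8.25%).

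The genes mt-Atp8 and mt-Atp6 lie on 1 strand of the mitochondrial genome (chrM:7766-7969 and chrM:7927-8607) and share 43 bases, shown because reads from these bases belong to both genes. The stretch at chrM:7927-7969, read from GRCm38, begins with the start codon of mt-Atp6, in capitals:
mt-Atp8 and mt-Atp6 overlap: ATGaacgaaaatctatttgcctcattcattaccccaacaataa
mt-Nd4l and mt-Nd4 share 7 bases at chrM:10167-10173, and mt-Nd6 (chrM:13552-14070, minus strand) overlaps mt-Nd5 by 14 bases on the opposite strand. How the counting treated such reads is not given in the sources used here, so the values of these pairs, in particular the low counts of mt-Atp8 and mt-Nd6, are uncertain to that degree.

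Few nuclear members differed by as much. In frontal cortex astrocytes 7 of 82 measured members were at least 1.2 times higher in the transgenic library and 2 lower, with a median log2 ratio of 0.09. Among all 7120 genes 17.1% were higher and 15% lower, with a median of 0.01. The members' share of higher genes (8.54%) was thus below the background. With the 4 clusters weighted alike, the counts were 0 higher and 13 lower.

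The largest astrocyte values were those of accessory subunits and an assembly factor. Ndufa1, an accessory subunit of the membrane arm of complex I, stood at 151 against 110 CPM (log2 0.46, 0.33 to 0.59). Ndufaf8, an assembly factor, stood at 51.0 against 40.3 CPM (0.34, 0.12 to 0.56). Ndufa13 at 541 against 437 CPM and Cox6a1, the common form of complex IV subunit 6a, at 355 against 287 CPM each had a log2 ratio of 0.31. At the other end were the assembly factor Ndufaf7 (28.1 against 34.8 CPM, −0.31) and Cox6b2 (18.0 against 21.7 CPM, −0.26, −0.60 to 0.07), followed by Ndufb10 and the core subunit Ndufs3 at −0.20 each. Cox6b2 reached 20 CPM only in the wildtype library, the side on which it was higher. With clusters weighted alike Ndufa1, Ndufa13 and Cox6a1 turned to −0.04, −0.05 and −0.09, and Cox6b2 to 0.12.

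Frontal cortex microglia had 13 of 80 nuclear members higher and 0 lower, with a median log2 ratio of 0.14, where 6.04% of all 6573 genes were higher, 10.1% lower and the median was −0.05. Ndufb2 (60.2 against 45.2 CPM) and Cox6c (307 against 231 CPM) each had 0.41, Atp5e, the epsilon subunit of the ATP synthase stalk, 0.39 (354 against 271 CPM), and Ndufa1 0.34. The lowest was Sdha, the flavoprotein of complex II that binds succinate, at 86.5 against 93.6 CPM (−0.11, −0.24 to 0.01). The count was 3 with the 4 clusters weighted alike. Endothelial cells of frontal cortex had 0 of 80 higher and 0 lower, beside 7.04% and 5.61% of all genes; Cox8a was highest at 537 against 464 CPM (0.21) and Ndufaf2, an assembly factor, lowest at 31.5 against 36.6 CPM (−0.22).

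In midbrain, few nuclear members passed 1.2 times, and Atp5k and Ndufa3 did so in all 3 cell types. Astrocytes had 3 of 81 higher and 1 lower (9.3% and 6.35% of all genes), microglia 3 of 80 and 2 (7.57% and 10.3%), and endothelial cells 8 of 81 and 2 (8.25% and 6.54%). Atp5k, subunit e of ATP synthase, which sits where the enzyme pairs up in the membrane, was at 341 against 236 CPM in astrocytes (0.53, 0.47 to 0.60), 114 against 77.3 in microglia (0.56) and 272 against 169 in endothelial cells (0.69, 0.60 to 0.77). Ndufa3, an accessory subunit of complex I, was at 222 against 169 CPM (0.39), 117 against 83.8 (0.48) and 216 against 147 (0.55).

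Among the lowest midbrain values, Ndufaf3, an assembly factor, was at 26.8 against 34.9 CPM in astrocytes (−0.38), and Cox4i1 at 719 against 829 CPM (−0.21, −0.25 to −0.17). In endothelial cells Ndufa4l2, the pericyte isoform, was at 13.2 against 22.2 CPM (−0.75, −1.10 to −0.42), beside pericyte markers summing to 777 and 861 CPM there, and Cox7a2l was at 320 against 395 CPM (−0.30). At a fold of 1.5 no nuclear member was called in these 6 comparisons other than Atp5k (higher) and Ndufa4l2 (lower) in midbrain endothelial cells. Ndufa4l2 reached 20 CPM there only in the wildtype library, so it was measured only through the side on which it was higher.

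Chosen after their values were seen, Atp5k and Ndufa3 were followed through all midbrain labels. Atp5k was higher in 7 of 7 with every counting interval above 0 (log2 0.48 in choroid plexus cells to 0.97 in macrophages), and so were Ndufa3 (0.39 to 0.66), Uqcr11 of complex III (0.17 to 0.59) and Cox7c of complex IV (0.07 to 0.45). By sign alone, Atp5e, Cox6c, Uqcrq, Ndufc1, Ndufb2, Ndufa5, Cox6a1 and Ndufa1 were also above 0 in 7 of 7 (0.02 to 0.69). Each had 1 to 6 counting intervals above 0. Also by sign alone, Atp5d, Cox4i1, Uqcrh, Atp5o.1, Ndufab1, Ndufs8 and Uqcrfs1 were below 0 in 7 of 7 (−0.35 to −0.01). Between 0 and 5 of their counting intervals lay below 0. The further genes named here were likewise picked from these values for their recurring sign. The share of all genes with 1 sign in 7 of 7 labels is not given here. In frontal cortex Atp5k gave −0.23 to 0.26, with mature neurons at the low end, and Ndufa3 −0.51 to 0.37. Ndufa1 was above 0 in 8 of 8 frontal cortex labels (0.07 to 0.66, 6 intervals above 0) and in 7 of 7 midbrain labels (0.08 to 0.33, 4 intervals above 0).

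The start window of Atp5k, shown because this gene had the largest nuclear log2 ratio in midbrain astrocytes, microglia and endothelial cells, lies at chr5:108434350-108434649 on the minus strand (RefSeq, GRCm38.p6). Capitals mark the NRF1 core, read on both strands over 10 bases, and an ETS core on the opposite strand:
Atp5k: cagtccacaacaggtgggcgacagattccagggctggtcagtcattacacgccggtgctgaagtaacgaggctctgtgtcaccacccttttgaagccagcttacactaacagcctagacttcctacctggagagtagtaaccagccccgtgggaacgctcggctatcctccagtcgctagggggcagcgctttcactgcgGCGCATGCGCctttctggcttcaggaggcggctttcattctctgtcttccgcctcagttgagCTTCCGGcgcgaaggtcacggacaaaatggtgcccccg

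**Figure D5:**
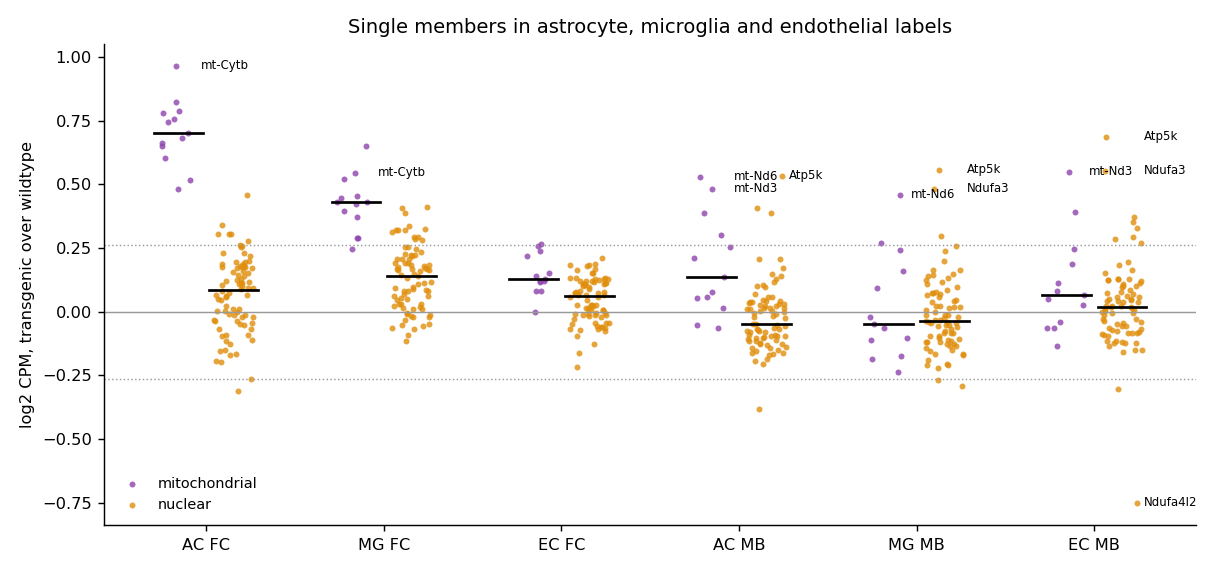
Log2 ratio of CPM, transgenic over wildtype, of each measured mitochondrial (purple) and nuclear (orange) member in astrocytes, microglia and endothelial cells of both regions, with medians as bars and dotted lines at 1.2 times. In frontal cortex astrocytes the 13 mitochondrial genes lie at 0.48 or more, apart from the nuclear genes, whose highest value is 0.46. In midbrain Atp5k is the highest nuclear gene. Ndufa3 follows it in microglia and endothelial cells, and Ndufaf2 (0.41) and then Ndufa3 (0.39) in astrocytes.

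Grouped by complex, the nuclear sums of complex I, II, III, IV and V in frontal cortex astrocytes had log2 ratios of 0.08, 0.07, 0.16, 0.11 and 0.09, beside mitochondrial ratios of 0.68 (I), 0.97 (III), 0.62 (IV) and 0.65 (V). Frontal cortex microglia had 0.13, −0.04, 0.22, 0.25 and 0.14, beside 0.39, 0.55, 0.42 and 0.45. Complex II, with no mitochondrial gene, had counting intervals of 0.01 to 0.14 in these astrocytes and −0.11 to 0.02 in these microglia, and the 8 complex I assembly factors summed to −0.04 and 0.05. In midbrain the nuclear sums of these 5 complexes lay between −0.05 and 0.09 in astrocytes, microglia and endothelial cells.

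Shorter nuclear members had the higher log2 ratios in microglia and endothelial cells, but hardly so in astrocytes. Over members, the Spearman correlation of transcript length and log2 ratio was −0.46 (frontal cortex) and −0.24 (midbrain) in microglia. It was −0.44 and −0.42 in endothelial cells and −0.16 and −0.009 in astrocytes. Among genes that are not members, those whose longest annotated coding transcript has at most 600 bases had a median log2 ratio of 0.27 in frontal cortex and 0.11 in midbrain microglia, 0.10 and 0.18 in endothelial cells and 0.12 and −0.05 in astrocytes. Members of at most 600 bases (14 or 15 genes) had 0.21 and 0.07, 0.12 and 0.14, and 0.18 and 0.02. Atp5k (371 bases), Ndufa1 (419), Uqcr11 (445), Atp5e (421) and Ndufa3 (515) are all of this class, as is Uqcrh (547), which was lower in midbrain. In the same class 54.4% (frontal cortex) and 30.4% (midbrain) of the other genes were at least 1.2 times higher in microglia. The shares were 16.4% and 37.7% in endothelial cells and 21.8% and 18.9% in astrocytes. Of the members in this class, 5 and 2 of 14, 0 and 5 of 14, and 3 and 2 of 15 were higher, in the same order. In frontal cortex astrocytes, the 11 members over 2000 bases had a median of 0.17, beside 0.01 for other genes of that length. The part of transcript length in the members' differences was not tested.

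RNA held in the nucleus and marker RNA of other cell types also differed between the genotypes. Malat1 and Neat1, RNAs held in the nucleus, summed to 97166 CPM in transgenic and 156433 CPM in wildtype frontal cortex astrocytes, but to 157027 and 155912 CPM in midbrain astrocytes and 35596 and 39986 CPM in frontal cortex microglia. Erythroid markers (5 of 5 higher in the transgenic library, none at 0) stood at 314 against 20.1 CPM in frontal cortex astrocytes and at 1700 against 47.4 CPM in midbrain microglia. Choroid plexus markers (0 of 5 higher) stood at 1942 against 3517 CPM in midbrain astrocytes and at 1707 against 5357 CPM in midbrain macrophages. Those macrophages, whose balance difference was −0.26, also had 347 against 1005 CPM of astrocyte markers (0 of 8 higher) and 474 against 72.8 CPM of smooth muscle markers (4 of 5 higher). Their part in the results was not tested.

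Genes that build or regulate the chain were read from 7 further lists (96 genes, 94 measured), again beside the background shares above. In frontal cortex astrocytes 6 of 61 at sufficient level were at least 1.2 times higher and 4 lower, in microglia 6 of 54 and 3, and in endothelial cells 1 of 55 and 1. The midbrain counts were 10 of 62 and 6, 8 of 55 and 5, and 7 of 56 and 3. Tfam, which packages and transcribes mitochondrial DNA, was at 36.2 against 28.7 CPM in frontal cortex astrocytes (0.34, 0.08 to 0.60), and at 31.1 against 32.8 CPM in microglia (−0.08, −0.29 to 0.13). Of the list on mitochondrial DNA copying and transcription, 5 genes were at sufficient level in those astrocytes, with Tfam higher and Ssbp1, which binds single-stranded mitochondrial DNA, lower at 73.3 against 89.1 CPM (−0.28, −0.45 to −0.12). Lrpprc, which stabilises mitochondrial messenger RNA, had 0.13 (−0.19 to 0.45) there. Ppargc1a, a coactivator of respiratory genes, was at 129 against 147 CPM there (−0.19, −0.32 to −0.07) and at 176 against 153 CPM in midbrain astrocytes (0.20, 0.11 to 0.28).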

How the data were processed

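Single-cell RNA was counted in 4 libraries, and the deposited values are whole-number UMI counts per feature and cell in 1 table a region. Per the submitters' processing notes the tools were Cell Ranger 3.0.0 and Seurat 3.1.5 with build mm10; cell filters and doublet handling are not given in the sources used here. Cell labels, clusters and genotypes came from the authors' cell tables, whose percent.mt column is a percent of a cell's UMIs. The members and lists were chosen with earlier results of these data known.

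UMIs were summed per label and library (at least 50 cells; 67 to 2644 cells where genotypes were compared) and scaled to CPM with python 3.11.15, numpy 2.4.6, scipy 1.17.1 and pandas 2.3.3. Ratios carry exact conditional 95% counting intervals, and the balance a normal one on the log scale. A gene was measured at 20 CPM in 1 library with 100 UMIs over both, and called at 1.2-fold. Named nuclear genes are the 4 largest and 4 smallest log2 ratios per comparison, from which the text takes examples, and all 13 mitochondrial genes were eligible. In GRCm38 annotation 103 of the 104 members were matched. Alternatives were TMM (edgeR 4.0.16), DESeq2 1.42.0 size factors (R 4.3.3), thinning, other cell sets and weights, a 1.5-fold call and no filter. The scripts were tested on simulated data. A check of the transgene and 1 nuclear member are not reported here.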

Additional observations from a re-analysis of the deposited data

Results flagged for a closer look

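In 4 labels the balance of mitochondrial to nuclear members differed between genotypes in opposite directions in the 2 regions; the difference between regions was not tested, with 1 library a group. Transgenic minus wildtype, microglia had 0.27 in frontal cortex and −0.088 in midbrain. Macrophages had 0.067 and −0.26, from 70 to 157 cells a library, with choroid plexus markers at 1707 against 5357 CPM in the midbrain cells. Smooth muscle cells had 0.17 and −0.042, and endothelial cells 0.066 and −0.069. With clusters weighted alike, the sign was the other in midbrain microglia (0.12), frontal cortex endothelial cells (−0.056) and midbrain smooth muscle cells (0.029). The part of foreign RNA and of cluster sizes was not tested.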

How the results depend on the processing

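Log2 values are transgenic over wildtype. When per-cell CPM was averaged, the balance was 0.54 (frontal cortex astrocytes), 0.13 (frontal cortex endothelial cells), 0.47 (frontal cortex microglia), −0.0051 (midbrain endothelial cells) and −0.14 (midbrain microglia). The astrocyte mitochondrial sums were then 0.58 and 0.14 and the nuclear sums 0.044 and 0.050 (frontal cortex, midbrain), and 6 midbrain astrocyte and 5 midbrain microglial nuclear members were higher. With cells thinned to 3000 UMIs, which left out 233 of 868 and 200 of 1067 frontal cortex astrocytes, the balance was 0.65 and 0.11 in astrocytes, 0.077 and −0.048 in endothelial cells (frontal cortex, midbrain) and −0.046 in midbrain microglia. Astrocyte mitochondrial sums were 0.73 and 0.076, nuclear sums 0.079 and −0.034, and 1 frontal cortex endothelial and 9 midbrain microglial members were higher. In cells under 10% percent.mt with at least 500 genes, which caps the mitochondrial genes, the balance was 0.33 and 0.070 in astrocytes and 0.16 and −0.11 in microglia, the frontal cortex astrocyte nuclear sum 0.016, and 3 of its members were higher.

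With clusters weighted alike, the balance was 0.36 and 0.15 in astrocytes, −0.056 and −0.022 in endothelial cells and 0.41 and 0.12 in microglia (frontal cortex, midbrain). Astrocyte mitochondrial sums were 0.22 and 0.11, nuclear sums −0.15 and −0.042, and 0 frontal cortex astrocyte, 5 endothelial, 3 microglial and 5 midbrain astrocyte members were higher. Cox6b2 (0.12), Ndufa1 (−0.037), Ndufa13 (−0.045) and Cox6a1 (−0.087) then reversed in frontal cortex astrocytes. Without shallow clusters, an alternative chosen after seeing the data, the microglial balance was 0.19 and −0.056, the frontal cortex astrocyte nuclear sum 0.081, and 4 of its members were higher. The cause was not tested in any of these cases.

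With totals without mitochondrial and ribosomal protein genes, the astrocyte mitochondrial sums were 0.74 and 0.068, the frontal cortex nuclear sum 0.16 and its higher members 12. TMM gave 0.66 and 0.045 (mitochondrial) and 0.078 and −0.037 (nuclear), and DESeq2 size factors 0.66 and 0.044, and 0.077 and −0.038, with 5 higher midbrain microglial members under each. At 1.5-fold 0 nuclear members were higher in astrocytes and microglia of both regions, and 1 in midbrain endothelial cells. With no filter on low values 6 midbrain astrocyte members were higher. In all, 633 of 930 values of single genes and 31 of 75 balance values stayed within their counting interval, and 7 balance values had the other sign.

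No paired analysis was possible because each group is 1 library. Depth limits genes under 20 CPM and labels under 50 cells.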
